A study of Mus musculus with 14 samples.

Results

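Expression of 7 genes whose products mark megakaryocytes and platelets was followed over 14 arrays of sorted mouse bone marrow cells: Itga2b, Pf4, Vwf, Gp9, Gp5, Selp and Ppbp. All probe sets of the array with exactly 1 of these symbols were taken, which gave 8 probe sets for the 7 genes (2 for Selp) out of 20380 probe sets with 1 symbol and 12393 genes in all. All mice were C57BL/6 animals of 8 to 12 weeks with floxed alleles of Dnmt1 (Dnmt1fl/fl), the gene of the maintenance DNA methyltransferase. Knockout mice also carried Mx-Cre, a Cre recombinase transgene under an interferon-inducible promoter that is not restricted to blood cells, and control mice lacked it. Every mouse, control or knockout, was injected 7 times with poly(I)poly(C) (25 ug/kg), so the controls share the interferon stimulus, and marrow was collected 4 days after the final dose. After depletion of cells with mature lineage markers, 3 populations were sorted: long-term hematopoietic stem cells (LT-HSCs, c-Kit+ Sca-1+ CD34-), multipotent progenitors (MPPs, c-Kit+ Sca-1+ CD34+) and myeloid progenitors (c-Kit+ Sca-1-). The design held 2 arrays per genotype for LT-HSCs and for MPPs, and 3 per genotype for myeloid progenitors. A control and a knockout array of the same number came from littermates, which makes 7 pairs, and each array held pooled cells of 4 to 6 mice, so all errors describe pools of mice.

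Megakaryocytes are the marrow cells that shed platelets, and they arise from stem and progenitor cells under transcription factors such as GATA1, FLI1, RUNX1 and NF-E2. Their surface carries the fibrinogen receptor, made of integrin alpha IIb (Itga2b, also called CD41) and integrin beta 3, and the receptor for von Willebrand factor, a complex of glycoproteins Ib, IX (Gp9) and V (Gp5). Their alpha granules hold the chemokines platelet factor 4 (Pf4) and pro-platelet basic protein (Ppbp) and the adhesive protein von Willebrand factor (Vwf), with P-selectin (Selp) in the granule membrane. Several of these genes are read at low levels in stem cells, where Vwf and Itga2b are used to mark cells with a bias toward the platelet lineage, while Vwf and Selp are also made by endothelial cells.

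The values are hybridisation intensities as deposited, on a linear scale. Array medians lay between 41.1 and 49.1, and replicate arrays of a group correlated with r of 0.900 to 0.980. Dnmt1 itself had 1328 to 2219 on control arrays and 745 to 1305 on knockout arrays and was lower on the knockout array of all 7 pairs, although the deleted stretch is not named in the labels and the probes may lie outside it. The marker lists did not all follow the sort labels. The summed intensity of B cell markers was 6178 to 13120 on the arrays labelled LT-HSC and 176.5 to 2563 on MPP arrays. The stem cell markers summed to 711 to 1692 on LT-HSC arrays and 1296 to 3732 on MPP arrays. Among them Mecom was not above the 40th percentile of its array in any population, while Procr, Hlf, Hoxa9 and Mllt3 were on all 14 arrays. Cd34, the gene of the marker that separates the LT-HSC and MPP sorts, did follow the labels. It had 7.55 to 96.8 on LT-HSC arrays and 310 to 1021 on MPP arrays. The arrays labelled LT-HSC are called so here by their sort.

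RefSeq promoters on GRCm38.p6 were looked up for the members, since the deleted enzyme acts at CpG dinucleotides, and 6 of the 7 genes matched a table entry (Vwf did not). The 250 bases before the transcription start held 2 CpG dinucleotides for Itga2b, 2 for Gp9, 0 for Gp5, 1 for Pf4, 2 for Ppbp and 3 for Selp, against a median of 6 (quartiles 2 and 16) over 32851 windows of the same length. The letters AGGAAG, which contain the shorter core GGAA bound by factors of the ETS family such as FLI1, were searched on either strand. They were found in 5 of the 6 windows, Ppbp being the exception, and in 29.5% of all windows. The Ppbp window does hold the shorter core GGAA. The letters AGATAA, bound by GATA factors, were found only for Gp5 among the 6 (10% of all windows), and TGTGGT, bound by RUNX factors, only for Gp9 (14% of all windows). These motifs were chosen with the sequences in view, and methylation was not measured on these arrays. Pf4, Itga2b and Gp9 are shown, as the granule chemokine with the clearest signal and a subunit of each receptor, from chr5:90772185-90772434 (plus strand), chr11:102469884-102470133 (minus strand) and chr6:87777820-87778069 (plus strand). Each is written 5′ to 3′ in the direction of the gene and ends at the base before the start, with capitals at each CG and at AGGAAG or its reverse complement CTTCCT.
Pf4: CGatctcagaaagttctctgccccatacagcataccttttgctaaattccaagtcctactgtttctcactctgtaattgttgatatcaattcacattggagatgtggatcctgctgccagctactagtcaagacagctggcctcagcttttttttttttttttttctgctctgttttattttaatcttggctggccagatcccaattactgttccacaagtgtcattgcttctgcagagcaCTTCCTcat
Itga2b: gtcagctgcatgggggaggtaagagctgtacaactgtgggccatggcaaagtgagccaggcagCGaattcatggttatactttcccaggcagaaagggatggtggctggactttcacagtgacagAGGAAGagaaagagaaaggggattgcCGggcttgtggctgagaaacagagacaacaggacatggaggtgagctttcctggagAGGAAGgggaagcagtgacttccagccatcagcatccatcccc
Gp9: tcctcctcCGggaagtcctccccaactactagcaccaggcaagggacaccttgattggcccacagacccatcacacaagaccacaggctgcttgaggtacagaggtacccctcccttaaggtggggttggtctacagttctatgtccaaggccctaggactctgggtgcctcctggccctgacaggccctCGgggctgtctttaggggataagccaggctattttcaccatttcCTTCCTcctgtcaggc
The ETS letters lay 9 to 4 bases before the start in Pf4 and 16 to 11 bases before it in Gp9, both on the opposite strand. In Itga2b they lay on the gene's own strand, 125 to 120 and 43 to 38 bases before the start. Ppbp and Pf4 are neighbours on chromosome 5, with no other gene between them in the RefSeq table.

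The surface receptor genes were near the lower limit of what the arrays registered. A probe set was called above background here when it exceeded the 40th percentile of its own array, a level of 19.9 to 26.9 units. Itga2b (Entrez Gene 16399) exceeded it on 7 of 14 arrays, Gp9 (Entrez Gene 54368) on 7 and Gp5 (Entrez Gene 14729) on 1. Among the granule genes, Pf4 (Entrez Gene 56744) exceeded it on all 14 arrays, Vwf (Entrez Gene 22371) on 9, Selp (Entrez Gene 20344) on 9 and Ppbp (Entrez Gene 57349) on 1. The 5 genes above it on at least 2 arrays were tested. Gp5 and Ppbp did not pass this filter, and only their values are given, with a separate fit for Gp5 that used no filter. Intensities of different probe sets are not comparable as levels of RNA, so each gene is compared only with itself.

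Itga2b had intensities of 3.68 and 44.9 on LT-HSC control arrays 1 and 2 and of 24.1 and 78.9 on knockout arrays 1 and 2. MPP control arrays had 26.2 and 28.4, and MPP knockout arrays had 21.9 and 65.0. Myeloid progenitors had 21.3, 15.6 and 17.5 on control arrays 1 to 3 and 14.1, 38.5 and 19.9 on knockout arrays 1 to 3. The genotypes overlapped in every population, and the highest array was LT-HSC knockout 2.

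Gp9, the subunit that the glycoprotein Ib complex needs to reach the cell surface, had 21.4 and 37.5 on LT-HSC control arrays and 44.8 and 75.2 on knockout arrays. MPP control arrays had 138 and 25.3, and knockout arrays had 62.8 and 20.2. Myeloid progenitor values were 4.63, 21.5 and 22.4 on control arrays and 13.9, 23.6 and 9.85 on knockout arrays. Both LT-HSC knockout arrays were thus above both controls, a pattern seen in 13% of all genes tested, whereas in MPPs and myeloid progenitors the genotypes overlapped.

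Gp5, which joins the same receptor, had 7.73 and 18.4 on LT-HSC control arrays and 15.4 and 28.1 on knockout arrays. MPP control arrays had 8.14 and 8.40, and knockout arrays had 10.9 and 14.8. Myeloid progenitor control arrays had 11.3, 8.31 and 5.76, and knockout arrays had 12.6, 20.3 and 12.7. In these deposited values the genotypes overlapped in LT-HSCs but not in MPPs or myeloid progenitors, where every knockout array was the higher. After quantile normalisation they overlapped in both of the latter, where 13% (MPPs) and 3.28% (myeloid progenitors) of all genes without the filter had every knockout array above every control array. All but 1 of these values, LT-HSC knockout 2, lay at or below the 40th percentile of the array.

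Pf4 was the only member above that percentile on every array, with 79.8 and 503 on LT-HSC control arrays and 105 and 282 on knockout arrays. MPP control arrays had 769.6 and 246, and knockout arrays had 792 and 99.2. Myeloid progenitor control arrays had 155, 47.2 and 23.5, and knockout arrays had 35.3, 59.1 and 40.5. Both arrays of LT-HSC pair 2 exceeded both of pair 1, both arrays of MPP pair 1 exceeded both of pair 2, and the genotypes overlapped in all 3 populations.

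Vwf, the ligand of the glycoprotein Ib complex, had 18.9 and 67.5 on LT-HSC control arrays and 24.7 and 90.9 on knockout arrays. MPP control arrays had 49.7 and 29.3, and knockout arrays had 112 and 46.0. Myeloid progenitor control arrays had 22.6, 17.5 and 14.3, and knockout arrays had 7.40, 28.1 and 11.5. All 6 myeloid progenitor arrays lay below all 4 MPP arrays, while both LT-HSC arrays of pair 1 lay within their range, and the genotypes overlapped in every population.

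Selp, the adhesion receptor that activated platelets expose to leukocytes, had 37.7 and 81.1 on LT-HSC control arrays and 52.4 and 35.2 on knockout arrays. MPP control arrays had 46.3 and 38.7, and knockout arrays had 122 and 30.9. Myeloid progenitor control arrays had 18.8, 49.1 and 21.3, and knockout arrays had 17.7, 13.9 and 18.3. All 3 myeloid progenitor knockout arrays were below all 3 controls, also after normalisation, a pattern of 3.1% of all genes tested and of no other tested member, and 5 of these 6 arrays were under their 40th percentile. The LT-HSC and MPP genotypes overlapped. Another Selp probe set ran from 7.40 to 38.9 over the 14 arrays and exceeded the 40th percentile on 8. It did not repeat the myeloid progenitor pattern. Its control arrays there had 21.1, 23.8 and 17.8 and its knockout arrays 20.5, 9.29 and 16.6, so the genotypes overlapped.

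Ppbp ran from 1.00 to 28.2 with a median of 4.11 and was above the 40th percentile only on MPP knockout 1. Its MPP knockout arrays had 28.2 and 2.15, against 3.04 and 5.26 on the controls. Myeloid progenitor control arrays had 6.31, 11.7 and 3.77, and knockout arrays had 1.55, 3.16 and 2.10. All of these knockout values were below all of the controls, a pattern of 3.1% of genes that passed the filter, which Ppbp did not. The array below the highest had 11.7, so the gene for the chemokine next to Pf4 on chromosome 5 was at background on 13 of 14 arrays while Pf4 was not.

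**Figure D1:**
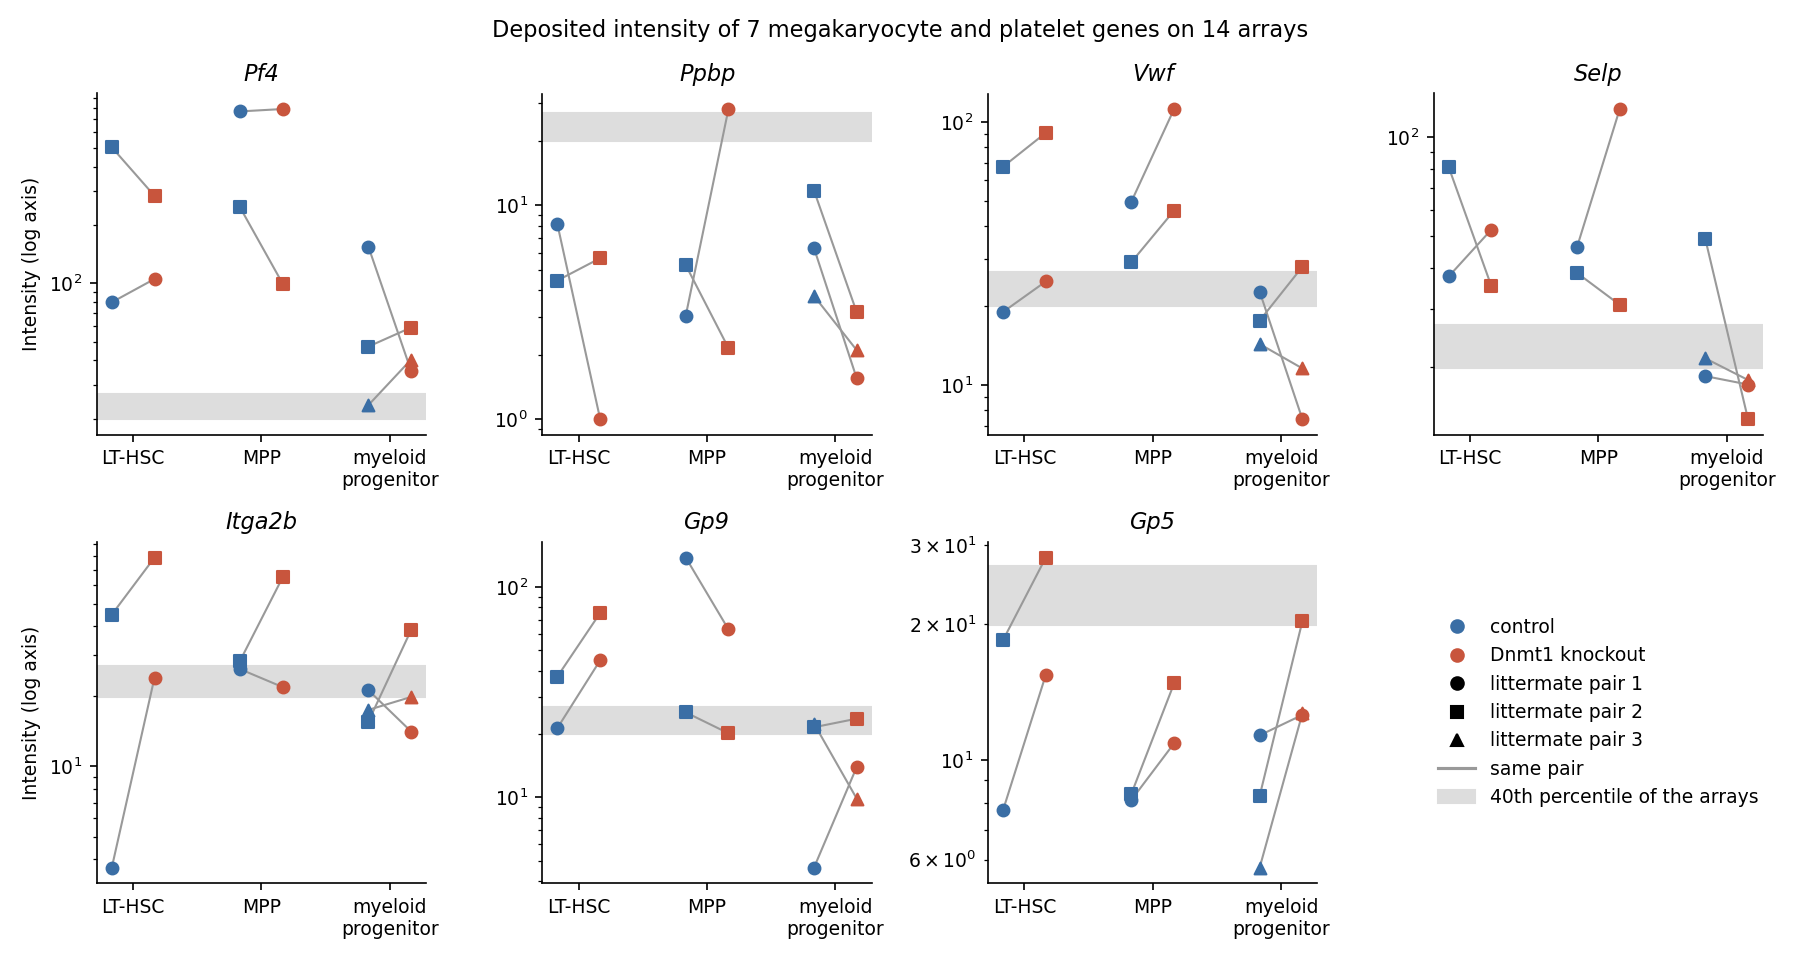
Deposited intensity (log axis) of the 7 genes on each of the 14 arrays, by population and genotype, with control arrays in blue, knockout arrays in red, a marker shape and a joining line for each littermate pair, and a grey band from the lowest to the highest 40th percentile of an array. Each panel has its own axis; Pf4 exceeds the percentile of its own array on all 14 arrays, and Gp5 and Ppbp do so on 1 array each.

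The comparison of genotypes asked whether loss of Dnmt1 changed these genes, and none of the 5 tested members passed in any population. The difference is the knockout mean less the control mean of quantile-normalised log2(intensity + 16), a scale that understates changes of dim genes, and is given with the standard error of the limma fit. In LT-HSCs 3 members were higher and 2 lower, with a median of 0.31 against -0.004 over all 8608 genes tested. In MPPs 3 were higher and 2 lower (median 0.37), in myeloid progenitors 2 were higher and 3 lower (median -0.16), and on average over the 3 populations 3 were higher and 2 lower (median 0.08). By limma 0 of 5 passed an adjusted p of 0.05 in each of the 4 comparisons and 0 were below an unadjusted p of 0.05. The share of all genes that passed was 0.0697% for LT-HSCs, 0.0697% for MPPs, 0.0929% for myeloid progenitors and 0.232% for the average. The share below an unadjusted p of 0.05 was 6.62%, 2.66%, 1.02% and 6.05%.

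The fibrinogen receptor subunit Itga2b had the largest average among the 5 tested members, 0.47 ± 0.29 (SE, limma adjusted p = 0.931, 95% interval -0.15 to 1.10), and was higher on the knockout array of 5 of 7 pairs. LT-HSCs gave 0.87 ± 0.53 (2 arrays per genotype, higher in both pairs), MPPs 0.37 ± 0.53 (2 arrays per genotype) and myeloid progenitors 0.19 ± 0.44 (3 arrays per genotype). Gp9 was at 0.76 ± 0.55 in LT-HSCs, where it was higher in both pairs, and at -0.56 ± 0.55 in MPPs, where it was lower in both. The difference between these effects was 1.33 ± 0.77 (limma adjusted p = 0.999), within the spread of the arrays. In myeloid progenitors Gp9 was at 0.05 ± 0.45.

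Gp5 was higher on the knockout array of all 7 pairs, by 0.01 to 0.67, a pattern that 1.82% of 12393 genes showed without the filter. Of the 5 tested members 0 did, beside 2.13% of genes tested. The average difference was 0.31 ± 0.14 (95% interval 0.01 to 0.61), with limma adjusted p = 0.840 over all genes and an unadjusted p of 0.0430. Since Gp5 exceeded the 40th percentile on 1 array, most of these values are set side by side below the level called background. No fold is read from them.

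Among the granule genes, Pf4 averaged -0.36 ± 0.51 (limma adjusted p = 1.00, 95% interval -1.45 to 0.74) and was higher in 4 of 7 pairs. Its differences within pairs ran from -1.65 in myeloid progenitor pair 1 to 0.50 in pair 3. Vwf averaged 0.31 ± 0.28 (95% interval -0.30 to 0.91, higher in 5 of 7 pairs), with LT-HSCs at 0.31 ± 0.51, MPPs at 0.76 ± 0.51 and myeloid progenitors at -0.16 ± 0.42. Selp averaged -0.05 ± 0.25 (95% interval -0.60 to 0.50, higher in 2 of 7 pairs), and its other probe set gave -0.13 ± 0.19. Differences inside these intervals were not detectable with 2 or 3 arrays per group. Removing 1 array turned the sign of the average for Pf4, Gp9 and Selp, for instance to 0.03 for Pf4 without LT-HSC control 2, to -0.23 for Gp9 without MPP control 2 and to 0.22 for Selp without MPP knockout 2.

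**Figure D2:**
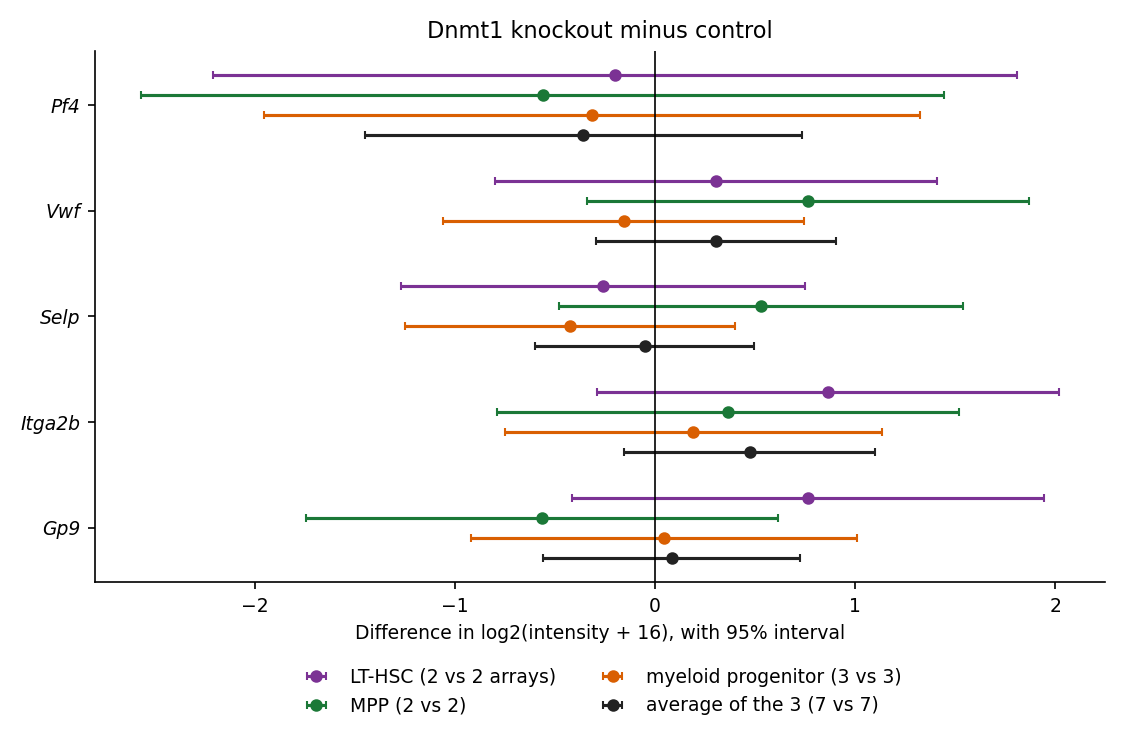
Knockout minus control for the 5 tested members in each population and on average, as differences in log2(intensity + 16) with unadjusted 95% intervals from the limma fit. Points are the estimates, and all of the intervals shown include 0.

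Comparing the 3 knockout effects with each other gave no call among the members. By limma 0 of 5 passed in each of the 3 interaction tests, 0 were below an unadjusted p of 0.05, and 0% of all genes passed. Below an unadjusted p of 0.05 were 3.02% of all genes for LT-HSCs minus MPPs, 2.66% for LT-HSCs minus myeloid progenitors and 0.488% for myeloid progenitors minus MPPs. The effect in myeloid progenitors minus that in MPPs was -0.92 ± 0.66 for Vwf, -0.95 ± 0.60 for Selp and -0.17 ± 0.69 for Itga2b. The effect in LT-HSCs minus that in myeloid progenitors ran from 0.11 ± 1.20 for Pf4 to 0.72 ± 0.71 for Gp9, so the standard errors exceeded or neared the differences themselves.

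The populations were compared over both genotypes to ask where along the sort the genes were highest. Pf4, Vwf, Gp9 and Selp had lower values in myeloid progenitors than in MPPs, and Pf4 came nearest to the threshold without passing it. The median Pf4 intensity of LT-HSCs was 194, that of MPPs 508 and that of myeloid progenitors 43.8. Myeloid progenitors minus MPPs was -2.43 ± 0.60 for Pf4 (limma adjusted p = 0.0637, n = 6 and 4 arrays), -1.06 ± 0.33 for Vwf (limma adjusted p = 0.145), -1.02 ± 0.35 for Gp9 (0.194), -0.78 ± 0.30 for Selp (0.248) and -0.31 ± 0.35 for Itga2b (0.715). By limma 0 of 5 members passed in this comparison, where 1.95% of all genes did, and 4 of 5 were lower at an unadjusted p under 0.05, where 7.19% of all genes were. The median of the 5 was -1.02 and that of all genes 0.02. The other Selp probe set gave a smaller difference, -0.34 ± 0.22 (limma adjusted p = 0.588 over all probe sets).

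LT-HSCs lay between the other populations for Pf4. LT-HSCs minus myeloid progenitors was 1.61 ± 0.60 for Pf4 (limma adjusted p = 0.0920), 0.84 ± 0.35 for Gp9 (0.129), 0.81 ± 0.33 for Vwf (0.119), 0.73 ± 0.30 for Selp (0.125) and 0.27 ± 0.35 for Itga2b (0.630). The other Selp probe set had the opposite sign, -0.09 ± 0.22 (limma adjusted p = 0.852 over all probe sets), so the Selp value depends on the probe set read. By limma 0 of 5 passed and 14.1% of all genes did, while 4 of 5 were higher below an unadjusted p of 0.05, as were 13.6% of all genes. That count is also a description, since Vwf, Gp9 and Selp passed the filter mainly through LT-HSC and MPP arrays. LT-HSCs minus MPPs ran from -0.82 ± 0.66 for Pf4 to -0.04 ± 0.38 for Itga2b, with 0 of 5 members passing by limma, 0 below an unadjusted p of 0.05 against 4.97% and 21.3% of all genes. These neighbours in the order of levels were not separated beyond their spread. Vwf was the only 1 of the 5 with all 6 myeloid progenitor arrays below all 4 MPP arrays, a pattern of 3.02% of all genes, and 0 of 5 had them all below the 4 LT-HSC arrays, a pattern of 6.01%.

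On control arrays alone Pf4 and Gp9 were highest in MPPs and lowest in myeloid progenitors, as over both genotypes, with wider errors. Vwf was also lowest in myeloid progenitors, but its control LT-HSCs and MPPs were level, with LT-HSCs minus MPPs at -0.01 ± 0.51. The order differed for Selp and Itga2b. Control LT-HSCs minus control MPPs was 0.34 ± 0.47 for Selp, and control LT-HSCs minus control myeloid progenitors was -0.07 ± 0.49 for Itga2b. Control myeloid progenitors minus control MPPs was -2.56 ± 0.85 for Pf4 (limma adjusted p = 0.316) and -1.32 ± 0.50 for Gp9 (0.403), and 0 of 5 members passed by limma against 0.0813% of all genes, with 2 of 5 below an unadjusted p of 0.05 against 8.92%. In control LT-HSCs minus control MPPs and control LT-HSCs minus control myeloid progenitors 0 of 5 passed by limma and 0 were below an unadjusted p of 0.05, where 2.32% and 6.42% of all genes passed and 15.4% and 20% were below that p.

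The fit counts the control and the knockout array of a littermate pair as separate samples of a population. With the pair as a random block (correlation 0.502) the limma adjusted p of Pf4 was 0.210 for myeloid progenitors minus MPPs and 0.207 for LT-HSCs minus myeloid progenitors. The MPP pairs also differed. Without both arrays of MPP pair 2, myeloid progenitors minus MPPs was -3.53 for Pf4, -1.77 for Gp9, -1.46 for Vwf and -1.23 for Selp. That pair held the lower MPP values of these 4 genes, so leaving it out raised their MPP means. Over all alternatives the difference ran from -3.53 to -1.35 for Pf4 and from -1.77 to -0.26 for Gp9. For Vwf it ran from -1.59 to -0.55 and for Selp from -1.23 to -0.34. Without MPP knockout 2 alone Pf4 was at -3.13 (limma adjusted p = 0.0171) and Selp at -1.19 (0.0337), and without MPP control 2 alone Pf4 was at -2.83 (0.0392) and Gp9 at -1.49 (0.0187). Over all alternatives the adjusted p of Pf4 ran from 0.00827 to 1.00. Without both arrays of LT-HSC pair 1, LT-HSCs minus myeloid progenitors was 2.47 for Pf4 (limma adjusted p = 0.0460) and 1.45 for Vwf (0.0192), with ranges of 0.0431 to 0.431 and 0.0192 to 0.672 over all alternatives. Without LT-HSC control 1 alone Pf4 was at 2.19 (limma adjusted p = 0.0431).

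In bulk samples fewer megakaryocyte-primed cells and less RNA per cell cannot be told apart. Stem cell markers moved in the same direction as the members, with sums of 1296 to 3732 on MPP arrays and 634 to 952 on myeloid progenitor arrays. Endothelial markers summed to 605 to 1271 on MPP arrays and to 529 to 646 on myeloid progenitor arrays. Much of that sum came from Egfl7, with 308 to 759 on MPP arrays and 179 to 315 on myeloid progenitor arrays. Sele ran the other way, with 17.2 to 99.3 and 53.5 to 151. In myeloid progenitors minus MPPs 2 endothelial markers were higher and 6 lower, with a median of -0.057. Of the 14 endothelial markers on the array, 8 exceeded the 40th percentile on at least 2 arrays. Pecam1 and Egfl7 did so on 14 arrays, Flt1 on 11, Tie1, Tek and Sele on 9 each, Nos3 on 4 and Plvap on 2. Cdh5, Kdr and Cldn5 never exceeded that percentile. The part of stem cells and endothelial cells in the differences was not tested.

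**Figure D3:**
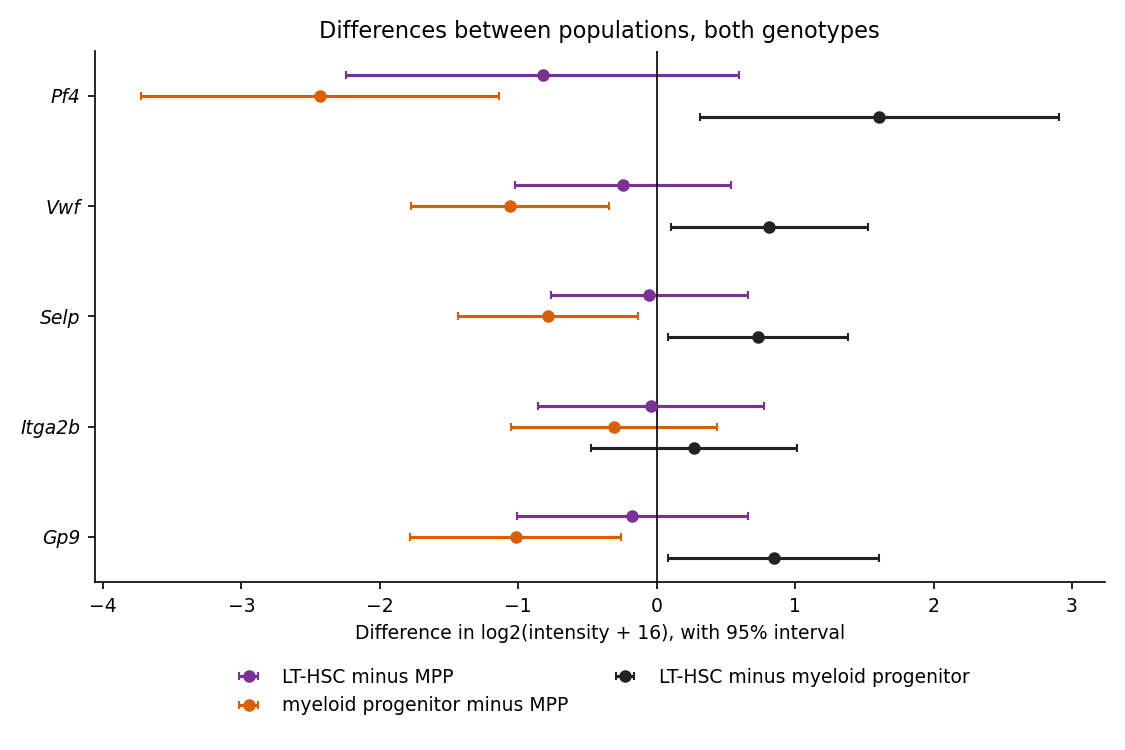
Differences between populations over both genotypes for the 5 tested members, as log2 differences with unadjusted 95% intervals from the limma fit. For myeloid progenitors minus MPPs, the intervals of Pf4, Vwf, Gp9 and Selp lie below 0 and that of Itga2b includes 0, while none of the adjusted p-values is under 0.05.

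Littermate pairs differed more than genotypes did for several members. In LT-HSCs, pair 2 was above pair 1 on both arrays for Itga2b, Pf4 and Vwf, that is 3 of the 5 members against 27.4% of all genes. The mean of pair 2 exceeded that of pair 1 by 1.72 for Pf4, 1.37 for Itga2b, 1.24 for Vwf, 0.44 for Gp9 and 0.06 for Selp on the log2 scale. In MPPs, pair 1 was above pair 2 on both arrays for Pf4, Vwf, Gp9 and Selp, 4 of 5 against 27.9% of all genes, with differences of 2.19 for Pf4, 1.52 for Gp9, 0.90 for Selp and 0.81 for Vwf. Itga2b ran the other way in MPPs, at -0.71. With 2 pairs in each population these differences are descriptions and have no test.

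Other measures moved with the pairs. The ratio of the 3′ to the 5′ Gapdh control probe sets, which rises with degraded or incompletely copied RNA, was 5.44 and 5.15 on the arrays of LT-HSC pair 1 and 3.07 and 2.46 on those of pair 2, while the MPP pairs had 2.86 and 2.66 against 2.44 and 2.53. In myeloid progenitors it was 5.27, 4.30 and 2.25 on control arrays 1 to 3 and 2.33, 4.35 and 2.36 on knockout arrays 1 to 3. In myeloid progenitor pair 1 the control array had the higher Gapdh ratio and the higher Pf4 intensity (155 against 35.3). MPP pair 1 also had the higher ratios and the higher Pf4 values of its population. In LT-HSCs the direction was the opposite, with higher ratios and lower Pf4 values in pair 1. The same ratio for the Actb control probe sets did not move with the Gapdh ratio. Actb had 0.81 and 0.75 on the arrays of LT-HSC pair 1 and 0.97 and 1.09 on those of pair 2. The MPP pairs had 1.04 and 0.83 against 1.10 and 1.08. In myeloid progenitor pair 1 the Actb ratio was 1.18 on the control and 1.13 on the knockout array. Mature granulocyte markers were higher in LT-HSC pair 2 for 6 of 6 genes (median 2.49) and lower in MPP pair 1 for 6 of 6 (median -2.01), B cell markers were lower in LT-HSC pair 2 for 9 of 9 (median -1.19) and higher in MPP pair 1 for 8 of 9 (median 0.88), and stem cell markers were higher in LT-HSC pair 2 for 8 of 9 (median 0.92) and in MPP pair 1 for 9 of 9 (median 0.59). Monocyte markers were lower in MPP pair 1 for 8 of 8 (median -1.32) and myeloid progenitor markers for 8 of 8 (median -0.79), while in LT-HSC pair 2 their medians were -0.05 and -0.39. Endothelial markers split evenly, with 4 of 8 higher in LT-HSC pair 2 (median -0.03) and 4 of 8 in MPP pair 1 (median 0.07). The part of RNA quality and of these cells in the differences between pairs, genotypes and populations was not tested.

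**Figure D4:**
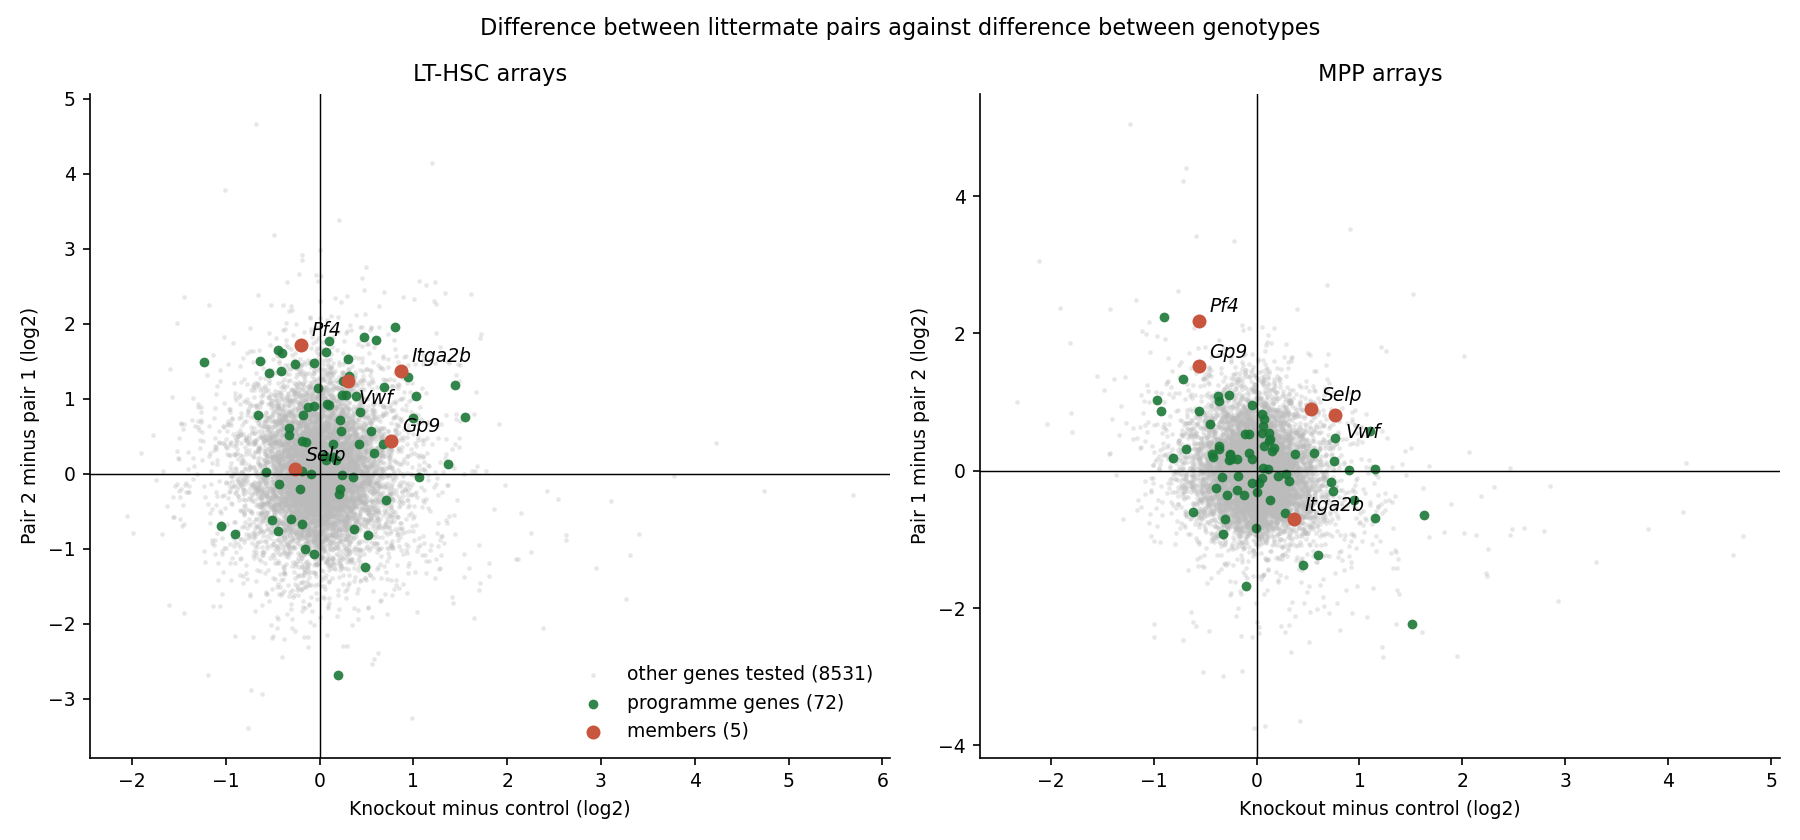
For each of the 5 tested members in LT-HSCs and in MPPs, the difference between the means of the 2 littermate pairs (vertical axis) is plotted against the difference between knockout and control (horizontal axis), both in log2 units, with members in red, the 72 tested genes of the wider megakaryocyte programme in green and all other tested genes in grey. In LT-HSCs Pf4, Itga2b and Vwf have a pair difference above 1.2 and in MPPs Pf4 and Gp9 have one above 1.5, larger in size than the genotype difference of the same gene.

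Over the 14 arrays Pf4 and Vwf varied most closely together among the 5 tested members. Pearson's r on the normalised log2 values was 0.840 between Pf4 and Vwf, 0.709 between Pf4 and Gp9, 0.700 between Pf4 and Selp, 0.656 between Vwf and Selp, 0.655 between Vwf and Gp9 and 0.537 between Gp9 and Selp. Itga2b had r of 0.531 with Vwf, 0.255 with Pf4, 0.207 with Gp9 and -0.093 with Selp. Spearman's rho was 0.908 between Pf4 and Vwf, 0.631 between Itga2b and Vwf, 0.582 between Gp9 and Selp and 0.530 between Vwf and Selp. The points share arrays, amplification and littermate pairs, so these values are descriptions. Among all 8608 genes the closest to Pf4 were Ctla2b (r = 0.920), Gucy1a1 (0.912) and Esam (0.901), the last a junction protein of platelets and endothelial cells. The closest to Vwf were Tgm2 (r = 0.877), Usp19 (0.866) and Ptn (0.865), and the closest to Gp9 were Klrg1 (r = 0.943), Myo5b (0.918) and Rnf11 (0.916). Itga2b was closest to Slc14a1 (r = 0.870), Stk39 (0.856) and Serpinb6a (0.850), and Selp to Ssbp4 (r = 0.878), 1110008P14Rik (0.873) and Rpl39 (0.872). Spearman's rho of these 15 genes ran from 0.776 to 0.895.

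A wider list of the megakaryocyte programme was read beside the members, with 91 genes in 4 roles, of which 81 were on the array and 72 were tested. In the knockout comparisons 0 of 72 passed by limma in each population and on average. With the littermate pair as a random block 1 passed in LT-HSCs, Itgb3 at 1.06 (limma adjusted p = 0.0454), and 2 on average, Gata1 at 1.00 (0.0448) and Lat at 0.96 (0.0489). Without LT-HSC control 2, 3 passed on average, Gata1 at 1.31 (limma adjusted p = 0.0285), F2r at 1.39 (0.0409) and Slamf1 at 1.05 (0.0385), the last named after its values were seen. At an unadjusted p under 0.05, LT-HSCs had 5 higher and 2 lower, MPPs 2 and 2, myeloid progenitors 0 and 0, and the average 6 and 1, against 3.19% of all genes higher and 2.86% lower on average. The median of the 72 was 0.12 for LT-HSCs, -0.025 for MPPs, -0.039 for myeloid progenitors and -0.01 for the average, beside -0.004, -0.002, -0.017 and -0.008 over all genes.

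Of the transcription factors, Gata1, which drives erythroid and megakaryocyte genes alike, had the largest differences. Its intensity was 139 and 587 on LT-HSC control arrays and 605 and 537 on knockout arrays, 73.0 and 94.7 on MPP control arrays and 189.8 and 406 on knockout arrays. Myeloid progenitor control arrays had 147, 209.6 and 217, and knockout arrays had 183, 369 and 202. Both MPP knockout arrays were above both controls, a pattern of 13% of all genes without the filter. In 5 of 7 pairs Gata1 was higher in the knockout. The difference was 1.62 ± 0.52 in MPPs (limma adjusted p = 1.00) and 1.00 ± 0.28 on average (0.349). Erythroid markers moved with it, with 10 of 10 higher on average (median 0.61, 0 passing by limma) and a sum of 4916 to 5360 on MPP knockout arrays against 2462 to 3913 on controls, and their part in the Gata1 difference was not tested. Zfpm1, the cofactor of GATA1, was at 1.15 ± 0.37 in MPPs and 0.48 ± 0.20 on average. Gata2 averaged 0.55 ± 0.34, Fli1 -0.11 ± 0.18, Runx1 -0.25 ± 0.14 and Nfe2 0.09 ± 0.31, and none of the 14 factors passed by limma.

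Of the receptors, Itgb3, the partner of Itga2b in the fibrinogen receptor, had 13.4 and 10.3 on LT-HSC control arrays and 38.4 and 44.8 on knockout arrays. Both LT-HSC knockout arrays were above both controls, a pattern of 13% of all genes tested. In MPPs the order was the reverse, with 49.5 and 26.5 on control arrays and 19.7 and 15.0 on knockout arrays. The share of all genes with that reverse order was not counted. Myeloid progenitors ran from 7.29 to 20.8. The differences were 1.06 ± 0.29 in LT-HSCs (limma adjusted p = 0.402) and -0.69 ± 0.29 in MPPs (limma adjusted p = 1.00), and the difference between these effects was 1.74 ± 0.41 (limma adjusted p = 0.999). Gp1bb, the subunit that joins Gp9 in the von Willebrand factor receptor, averaged -0.30 ± 0.28 and was higher in 2 of 7 pairs. F2r, a thrombin receptor, averaged 1.04 ± 0.33 (limma adjusted p = 0.458) and was higher in 6 of 7 pairs. None of the 14 receptors tested passed.

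Of the granule genes, Clu averaged 0.67 ± 0.25 and was at 1.37 ± 0.45 in LT-HSCs (limma adjusted p = 0.499), and 0 of 17 passed. Clu had 3.74 and 21.7 on LT-HSC control arrays and 67.3 and 41.5 on knockout arrays. Both of these control values lay below the 40th percentile of their arrays (22.2 and 23.8), so no fold is read from them. Among the genes for cytoskeleton, signalling and platelet enzymes, Lat, an adaptor of the platelet collagen receptor and the T cell receptor, averaged 0.96 ± 0.27 (limma adjusted p = 0.344, higher in 5 of 7 pairs) and was at 1.55 ± 0.49 in LT-HSCs. Pdlim1 and Tbxas1, the thromboxane synthase, averaged -0.09 ± 0.21 and -0.07 ± 0.21, and 0 of 27 passed.

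Between populations the programme did not move as a block. In myeloid progenitors minus MPPs, 1 of 72 genes was higher and 7 were lower by limma (1.16% and 0.790% of all genes), with a median of -0.24 beside 0.02 over all genes. Those lower were Lat at -1.62 ± 0.32, Esam at -2.24 ± 0.49, Pear1, a platelet aggregation receptor, at -1.70 ± 0.39, Angpt1, a growth factor stored in granules, at -2.14 ± 0.49, Mylk, the myosin light chain kinase, at -1.45 ± 0.27, Tbxas1 at -1.08 ± 0.25 and Cavin2, a membrane coat protein, at -2.18 ± 0.47 (limma adjusted p of 0.0203 to 0.0457). The gene that was higher was F10, coagulation factor X, at 1.42 ± 0.21 (0.00776). With the pair as a random block 0 of the 72 passed in this comparison, and without both arrays of MPP pair 2 the count was 15.

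Esam, Ccl5, Mylk and Cavin2 had all 6 myeloid progenitor arrays below all 8 others, 4 of 72 (5.56%) against 1.01% of all genes. Cavin2 had 7.27 to 109 with a median of 32.6 on myeloid progenitor arrays. It had 170 and 601 on LT-HSC control arrays, 332 and 519 on knockout arrays, 327 and 165 on MPP control arrays and 316 and 149 on knockout arrays. Its pairs ran as those of Pf4 did, with both arrays of LT-HSC pair 2 above both of pair 1 and both arrays of MPP pair 1 above both of pair 2.

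In LT-HSCs minus myeloid progenitors 13 of the 72 were higher and 7 lower by limma (5.76% and 8.38% of all genes), with 16 in all when the pair was a random block. The higher genes included the receptors F2r at 1.43 ± 0.39, F2rl2 at 1.26 ± 0.23, Tbxa2r, the thromboxane receptor, at 1.67 ± 0.34, Esam at 1.91 ± 0.49 and Slamf1 at 1.28 ± 0.34 (limma adjusted p of 0.00270 to 0.0261). They also included Zfpm1 at 1.05 ± 0.24, Ldb1 at 1.498 ± 0.31, Ccl5 at 2.60 ± 0.46, Lat at 1.57 ± 0.32, Mylk at 2.13 ± 0.27, Gsn at 1.57 ± 0.27, Cavin2 at 2.86 ± 0.47 and Ccnd3 at 1.84 ± 0.23. Esam and Slamf1 also stand in the stem cell marker list, and lymphocytes make Ccl5 and Lat. The lower genes were F13a1 at -3.70 ± 0.63, F10 at -2.32 ± 0.21, F5 at -1.03 ± 0.21, Srgn at -1.04 ± 0.18, Rab27a at -1.91 ± 0.39, Fcgr2b at -2.57 ± 0.48 and Flna at -0.92 ± 0.17, several of which are also made by monocytes and granulocytes. Monocyte markers summed to 4609 to 6158 on myeloid progenitor arrays and 549.6 to 985 on LT-HSC arrays, B cell markers to 416 to 1091 and 6178 to 13120, and their part in these differences was not tested.

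In LT-HSCs minus MPPs 3 of the 72 were higher and 5 lower by limma (2.16% and 2.81% of all genes), and 2 passed with the pair as a random block. Gsn at 1.83 ± 0.29, Ccnd3 at 1.55 ± 0.25 and Zfpm1 at 1.19 ± 0.26 were higher, and Etv6 at -1.09 ± 0.21, F10 at -0.89 ± 0.23, Srgn at -0.86 ± 0.20, Rab27a at -1.69 ± 0.43 and Rgs18 at -1.32 ± 0.35 were lower (limma adjusted p of 0.00298 to 0.0483). Without both arrays of LT-HSC pair 2 the count was 24. The share of programme genes that followed the littermate pairs was above the background for LT-HSC pair 2 and near it for MPP pair 1. In LT-HSCs 35 of the 72 (48.6%) were above on both arrays of pair 2, beside 27.4% of all genes, and 11 (15.3%) were above on both arrays of pair 1, beside 26.1%. In MPPs 22 (30.6%) were above on both arrays of pair 1, beside 27.9%, and 12 (16.7%) on both of pair 2, beside 31.3%.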

How the data were processed

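RNA of 14 sorted cell samples was amplified, labelled with biotin and hybridised to 1 array each, per the labels' protocols. From the values themselves, the deposited unit is linear intensity, with 1 value for each probe set on each array, from 0.73 to 19239. The authors' summarisation, background correction and scaling of the intensities are not given in the sources used here.

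It covers 22690 probe sets, 64 of them controls, and the platform annotation gives 1 symbol to 20380, several to 691 and none to 1555. Values were taken as log2(intensity + 16) and quantile normalised. Probe sets above the 40th percentile of their array on at least 2 arrays were kept, and the 1 with the highest mean represented its gene (8608 of 12393 genes). A single limma fit (limma 3.58.1, R 4.3.3) of 6 group means (mean-variance trend used, residual degrees of freedom 8, median prior ones 5.40) gave 13 comparisons. Tests were two-sided, adjusted by Benjamini-Hochberg over all genes at 0.05. The fit was tested on simulated data with independent noise on each array. Correlation within littermate pairs was not simulated, so that test does not cover it. For arrays no depth can be given, and their number limits the precision.

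The labels state that control and experimental samples of a replicate were littermates. Within these pairs the deviations from the group means correlated (LT-HSCs r = 0.465, MPPs r = 0.595, myeloid progenitors r = 0.204, 0.543 and 0.613). A fit with the pairs as blocks was therefore an alternative, beside other pseudocounts, normalisations, filters, no trend, fits of only the groups compared and leaving out arrays. The random block and the removal of both arrays of a pair were added after seeing the data.

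Named genes are the members, 7 further genes of the programme, the 3 with the lowest p in each knockout comparison and those passing between populations. Like genes are the 3 with the highest r per member. The members, lists and rules were chosen with earlier results of these data known. Gp1ba was not analysed here. Promoters are RefSeq sequences of GRCm38.p6. Figures used Python 3.11.15 with pandas 2.3.3, numpy 2.4.6 and matplotlib 3.10.9.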

Additional observations from a re-analysis of the deposited data

How the results depend on the processing

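No member passed the threshold in a knockout or interaction comparison under any alternative. With the littermate pairs as a replicate block 0 members passed in the 4 knockout comparisons, Itga2b was at 0.87 in LT-HSCs (limma adjusted p = 0.276) and 0.47 on average (0.282), and no other call changed. Of 757 alternative values of single members, 691 kept direction and side of the threshold, 53 changed sign and 13 passed where the value reported did not.

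Signs turned for differences near 0 and also for larger ones, and the cause was not tested. The larger ones included Pf4 in LT-HSCs minus MPPs (-0.82). In knockout minus control of MPPs they included Pf4 (-0.56), Gp9 (-0.56) and Selp (0.53). With a pseudocount of 64 Selp averaged 0.0023 and Itga2b in LT-HSCs minus MPPs was 0.0175. Leaving out 1 array in turn, knockout minus control in LT-HSCs ran from -1.35 to 0.96 for Pf4, from -0.35 to 0.96 for Vwf and from -0.61 to 0.0886 for Selp. In MPPs it ran from -1.95 to 0.83 for Pf4, from -1.51 to 0.39 for Gp9, from -0.28 to 1.34 for Selp and from -0.24 to 0.98 for Itga2b. In myeloid progenitors it ran from -0.78 to 0.28 for Pf4, from -0.23 to 0.20 for Gp9, from -0.40 to 0.0322 for Vwf and from -0.031 to 0.35 for Itga2b. The average ran from -0.82 to 0.11 for Pf4, from -0.23 to 0.40 for Gp9 and from -0.32 to 0.22 for Selp.

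For LT-HSCs minus MPPs the ranges with 1 array left out were -0.43 to 0.36 for Itga2b, -0.57 to 0.0819 for Vwf, -0.65 to 0.30 for Gp9 and -0.46 to 0.36 for Selp. Without both arrays of LT-HSC pair 1 the values were 0.65 for Itga2b, 0.0336 for Pf4, 0.38 for Vwf and 0.0495 for Gp9. Without MPP pair 1 they were 0.27 for Pf4, 0.16 for Vwf, 0.60 for Gp9 and 0.40 for Selp, and without MPP pair 2 Itga2b was at 0.31. Itga2b in LT-HSCs minus myeloid progenitors ran from -0.12 to 0.67 with 1 array left out and was -0.41 without LT-HSC pair 2, and in myeloid progenitors minus MPPs it was 0.0429 without MPP pair 2.

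The count of members passing, 0 in all 13 comparisons, rose in these cases. For myeloid progenitors minus MPPs it was 1 with only the groups compared (Pf4, limma adjusted p = 0.0412), 4 without MPP pair 2 and 0 to 2 with 1 array left out. For LT-HSCs minus myeloid progenitors it was 1 with only the groups compared (Gp9, 0.0318), 2 without LT-HSC pair 1 and 0 to 1 with 1 array left out. For control myeloid progenitors minus control MPPs it was 1 without MPP pair 2 and 0 to 1 with 1 array left out. Programme counts, reported as 8 for LT-HSCs minus MPPs, 8 for myeloid progenitors minus MPPs and 20 for LT-HSCs minus myeloid progenitors, ran from 2 to 24, 0 to 15 and 16 to 31. Signals near background and 2 or 3 arrays per group limit all of these values.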
